A study of Mus musculus with 3 samples.

Results

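Immediate-early genes are switched on within minutes of a signal, without new protein synthesis, and their transcripts are short-lived. Those followed here by name were Fos, Fosb, Jun, Junb, Jund, Egr1, Egr2, Ier2, Dusp1 and Btg2, read as a measure of activation or of handling stress. Of these 10 genes, 9 were found in the array annotation, with 12 probe sets among the 44170 transcripts and 24171 gene symbols measured. Egr1 was not analysed here. They were found by gene name in the annotation.

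Spleen cells of wild-type mice (strain C57/BL6, 8 weeks of age) had been sorted into B cells, natural killer (NK) cells and natural killer B (NKB) cells, and total RNA of each was measured. The labels give wild-type genotype and no stimulation for all of them. Each population was measured on 1 single-colour array, so no test is possible, no p-value is given, and precision is limited by that number. How many mice lie behind an array and how the populations were gated is not stated in the labels, whose sorting text speaks of LT-HSCs (long-term hematopoietic stem cells) for every sample.

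In lymphocytes the kinase cascades below antigen and cytokine receptors act on the transcription factors SRF, Elk and CREB, which can sit on the promoters of such genes before the signal arrives. Fos and Jun proteins then pair to form AP-1, which binds its own set of genes, while Dusp1 and Btg2 belong to the brakes: Dusp1 removes phosphate from MAP kinases and Btg2 slows proliferation and promotes decay of messenger RNA. Mechanical and enzymatic handling of tissue is also known to switch these genes on during cell isolation.

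So that some known motifs near the start can be read, the promoters of the 4 AP-1 genes whose values the results below turn on are shown. They are the 250 bases before the start that RefSeq gives (GRCm38.p6), each 5′ to 3′ on the strand of its gene. The Fos promoter lies at chr12:85473640-85473889 on the plus strand, Jun at chr4:95052223-95052472 on the minus strand, Junb at chr8:84978749-84978998 on the minus strand and Jund at chr8:70697489-70697738 on the plus strand. Capitals mark TGACGT (the core of the CREB site), the CCAAT box, the TATA box searched as TATAAA, the variant AP-1 site TGACATCA and the MEF2 box, each searched on both strands.
Fos: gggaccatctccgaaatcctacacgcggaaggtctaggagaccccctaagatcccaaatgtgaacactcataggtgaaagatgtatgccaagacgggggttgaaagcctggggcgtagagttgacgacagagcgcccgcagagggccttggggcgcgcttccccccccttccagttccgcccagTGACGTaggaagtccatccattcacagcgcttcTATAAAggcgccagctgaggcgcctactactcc
Jun: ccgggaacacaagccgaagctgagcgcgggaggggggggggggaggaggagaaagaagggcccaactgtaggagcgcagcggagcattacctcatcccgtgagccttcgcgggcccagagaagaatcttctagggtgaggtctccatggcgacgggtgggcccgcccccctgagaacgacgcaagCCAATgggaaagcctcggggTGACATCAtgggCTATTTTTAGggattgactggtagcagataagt
Junb: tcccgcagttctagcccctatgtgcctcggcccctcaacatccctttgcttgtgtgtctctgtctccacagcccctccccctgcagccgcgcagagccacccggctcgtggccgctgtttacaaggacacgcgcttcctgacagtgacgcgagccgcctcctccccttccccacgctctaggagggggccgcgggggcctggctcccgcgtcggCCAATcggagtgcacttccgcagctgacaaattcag
Jund: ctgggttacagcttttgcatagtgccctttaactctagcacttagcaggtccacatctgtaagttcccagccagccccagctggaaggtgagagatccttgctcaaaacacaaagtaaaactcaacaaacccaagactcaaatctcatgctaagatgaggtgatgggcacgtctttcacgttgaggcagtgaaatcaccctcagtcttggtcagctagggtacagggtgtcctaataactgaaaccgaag
Fos held TGACGT 66 to 61 bases before its start and TATAAA 33 to 28 bases before it. Jun held TGACATCA 45 to 38 bases and the MEF2 box 33 to 24 bases before its start, while Junb held CCAAT only and Jund none of the motifs searched. Among the members on the arrays, 8 had a promoter in the RefSeq table, and Egr1 was not searched. Of these 8, 4 held TGACGT at 1 or more of their listed starts (Btg2, Dusp1, Egr2 and Fos), against 6.46% of 32817 promoters of the same length. The 8 genes have 12 listed starts, several of them for Egr2. Counts of genes are therefore set here beside shares of single promoters. The complete TGACGTCA, which contains TGACGT, was in Btg2 and Dusp1, against 1.55% of all. The CArG box, the site of SRF, was within these 250 bases in Egr2 alone of the 8, and in 1.47% of all promoters. TGANTCA, which covers the AP-1 site but allows any base in the middle, was in none of the 8 and in 6.75% of all. CCAAT was in 4 (Btg2, Egr2, Jun and Junb) and in 33.8% of all. The TATA box, found in Fos alone, was in 12.4% of all, the variant AP-1 site in 2.93% and the MEF2 box in 0.509%. These are matches of letters in a short window, and say nothing of binding or of sites further from the start.

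All intensities below are the authors' values on a linear scale. Each array's detection level was the 95th percentile of 924 genes for smell and pheromone receptors, taken to be silent in spleen: 149 for B, 137 for NK and 135 for NKB. A gene's value is the mean of its probe sets on the log2 scale, values under the level were set to it, and a gene is called higher or lower at a 2-fold difference. Of the 9 members, 8 were above the level in B, 8 in NK and 7 in NKB cells. The labels of the sorted populations were set against 10 B cell and 9 NK cell marker genes. All 10 B cell markers were above the level on B and on NKB and 2 on NK. All 9 NK cell markers were above it on NK, 6 on NKB and 1 on B. Of these 9, 8 were at least 2-fold lower in NKB than in NK, and 1 was at least 2-fold higher than in B. Of the B cell markers, 4 were at least 2-fold lower in NKB than in B and 2 higher.

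Among the Fos family, the NKB array had the highest Fos and the lowest Fosb. Fos, the inducible partner of Jun proteins in AP-1, has its probe set on MM9 at chr12:86814850-86818219. It read 664 on B, 709.6 on NK and 1406 on NKB. The B and NK values lay close together and NKB stood above both, 2.12-fold above B and 1.98-fold above NK, so that the first difference is just inside and the second just outside the 2-fold call. After a new quantile normalization the log2 difference from B, 1.08 here, was 0.85, and Fos was no longer past 2-fold. Fosb, its close relative, lies at chr7:19890145-19894949 and read 153 on B, 279.6 on NK and 125 on NKB. NK was the highest array, B was barely above its level and NKB was under it. Fosb was thus at least 2.07-fold lower in NKB than in NK, and no fold of 2 was reached against B. With the level at the 99th percentile, 401 for NK and 235 for NKB, Fosb was under it on both arrays and no longer past 2-fold. The log2 difference from NK, -1.05 here, then became -0.77, which is only the difference of the 2 levels.

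The Jun family differed by member, and for Jun itself by probe set. Jun, the classical partner of Fos, has 2 probe sets on chromosome 4. The first, at chr4:94716392-94718056, read 436 on B, 648 on NK and 1534 on NKB. The second, at chr4:94716878-94718847, read 503 on B, 1570.1 on NK and 433 on NKB. The first probe set thus placed NKB highest and the second placed it lowest, although the 2 transcripts they were designed on share 1179 bases of the genome. The log2 difference of NKB from B was 1.81 on the first and -0.22 on the second, and from NK it was 1.24 and -1.86. Their mean, 0.80 against B and -0.31 against NK, hides that split, and no direction can be given for Jun in NKB from these probe sets.

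Junb, an AP-1 subunit that restrains Jun in many cells, was the member with the largest difference of NKB from NK. Its first probe set, at chr8:87500808-87502594, read 4302 on B, 8855 on NK and 4227 on NKB. Its second, at chr8:87500829-87502596, read 3659 on B, 9822 on NK and 1029 on NKB. Both placed NK highest and NKB lowest, but on the first NKB was within 1.02-fold of B and on the second it was 3.56-fold lower. Averaged, Junb was 4.47-fold lower in NKB than in NK and 1.90-fold lower than in B. The 2 transcripts share 1766 bases, nearly the full length of both.

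Jund, the member of the family that is present in resting cells and changes least on stimulation, was lowest on NKB on both probe sets. The first, at chr8:73222856-73224515, read 1693 on B, 1741 on NK and 483 on NKB. The second, at chr8:73222864-73224515, read 2029 on B, 706 on NK and 336 on NKB. NKB lay under B and NK on each, whereas B and NK were level on the first and apart on the second. Averaged, Jund was 4.60-fold lower in NKB than in B, the largest difference of any member in that comparison, and 2.75-fold lower than in NK.

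**Figure D1:**
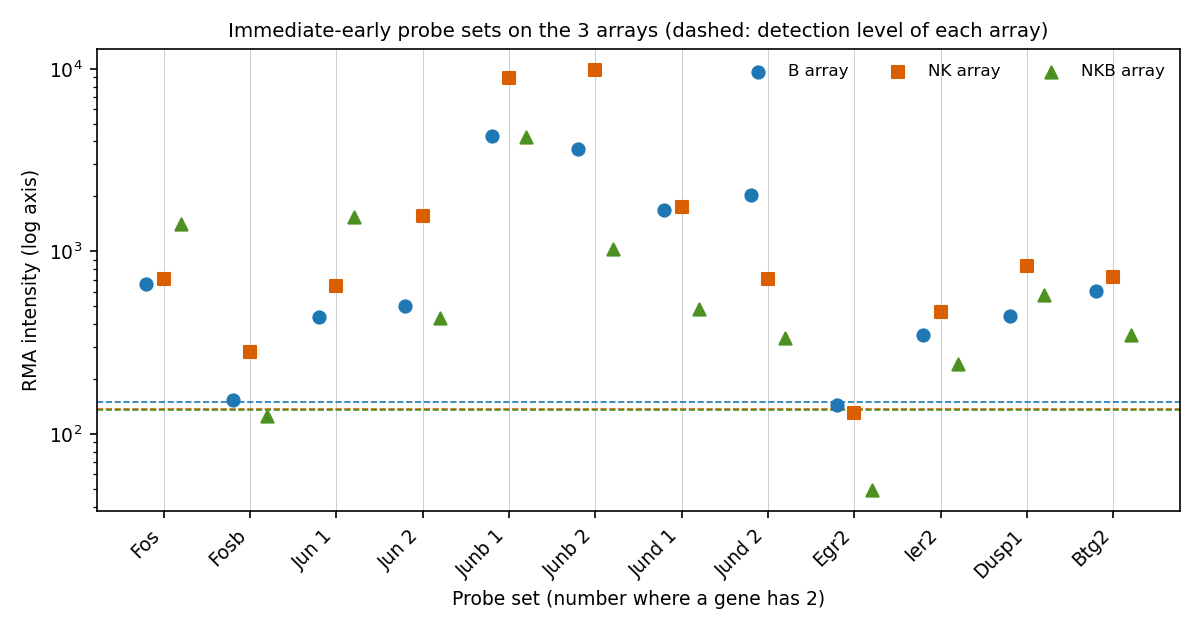
RMA intensity (log axis) of each of the 12 immediate-early probe sets on the B, NK and NKB arrays, 1 point per array, with the detection level of each array as a dashed line. NKB is the highest array for Fos and for the first Jun probe set and the lowest for 9 probe sets, and Egr2 lies under the level on all 3 arrays.

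The remaining members were Egr2, Ier2, Dusp1 and Btg2. Egr2, a zinc-finger factor of the early growth response family (chr10:67000616-67004936), read 144 on B, 131 on NK and 49.1 on NKB. It was under the level on every array, so no fold is given. Ier2, a short nuclear protein gene of the immediate-early class (chr8:87185233-87186736), read 347 on B, 465 on NK and 240.3 on NKB, with NKB lowest at 1.94-fold under NK. It lies 314 kb from Junb on the same chromosome.

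The 2 brakes differed from each other in order. Dusp1, the MAP kinase phosphatase (chr17:26642535-26645404), read 442 on B, 827 on NK and 576 on NKB, with NKB between the other arrays. No pair of arrays was 2-fold apart for it. Btg2, the antiproliferative gene (chr1:135971747-135975682), read 608 on B, 724 on NK and 347 on NKB. B and NK were near each other and NKB was below both, 2.09-fold below NK and 1.75-fold below B.

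Set side by side, the members did not move as a block on the NKB array. Against B, 1 of 9 was higher (Fos), 1 was lower (Jund) and 7 were neither. Over all 24171 genes 4.56% were higher and 4.75% lower, and among genes above the level on at least 1 of these 2 arrays, as 8 of the members were, 14.4% were higher and 15.0% lower. The members' counts are near that background. Their median log2 difference with values set to the level was -0.17, beside -0.14 over all genes, most of which lie under the level on both arrays and so take the difference of the levels. Without the level it was -0.53, beside 0.0097. Among genes above the level on at least 1 of these arrays, with the level kept, it was -0.35 over 8 members, beside -0.060, so the distance of the members' median from that of other genes depends on how dim values are treated. Of 12 monocyte and macrophage markers, 8 had an NKB value at least 2-fold above that of B. Their summed intensities over all 12 were 1475 on B, 7925 on NK and 12374 on NKB. Against NK, 3 were higher in NKB (Apoe, Vcam1 and C1qb), 2 lower (Lyz2 and Cd68) and 7 neither, and Apoe alone read 674 on NK and 4986 on NKB. Of these markers 2 were above the level on B, 9 on NK and 9 on NKB. Their part in the members' values was not tested. In sorted populations measured in bulk, more cells with a transcript and more transcript per cell cannot be told apart.

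Against NK, 0 of 9 members were higher and 4 were lower (Fosb, Junb, Jund and Btg2), while 5 were neither. The background was 5.97% higher and 5.10% lower over all genes, and 17.5% and 15.0% among genes above the level on at least 1 of the 2 arrays, so the share of lower members was above the background and that of higher members below it. The median log2 difference with values set to the level was -0.95, beside -0.020 over all genes, and without the level it was -1.06, beside 0.018. With 9 genes on 1 array each, this describes these arrays only. The NKB array enters both comparisons.

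NK was also set against B. Jun (2.15-fold) and Junb (2.35-fold) were higher in NK and no member was lower, with 2.22% of all genes higher and 2.97% lower, or 7.37% and 9.84% of those above the level on at least 1 array. Both probe sets of each gene were above B in NK, with log2 differences of 0.57 and 1.64 for Jun and 1.04 and 1.42 for Junb. The median log2 difference over the 9 members was 0.43 with and without the level, beside -0.12 with it and -0.028 without it over all genes. With the brightest probe set in place of the mean, Jun was at a log2 difference of 0.57 and no longer past 2-fold.

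**Figure D2:**
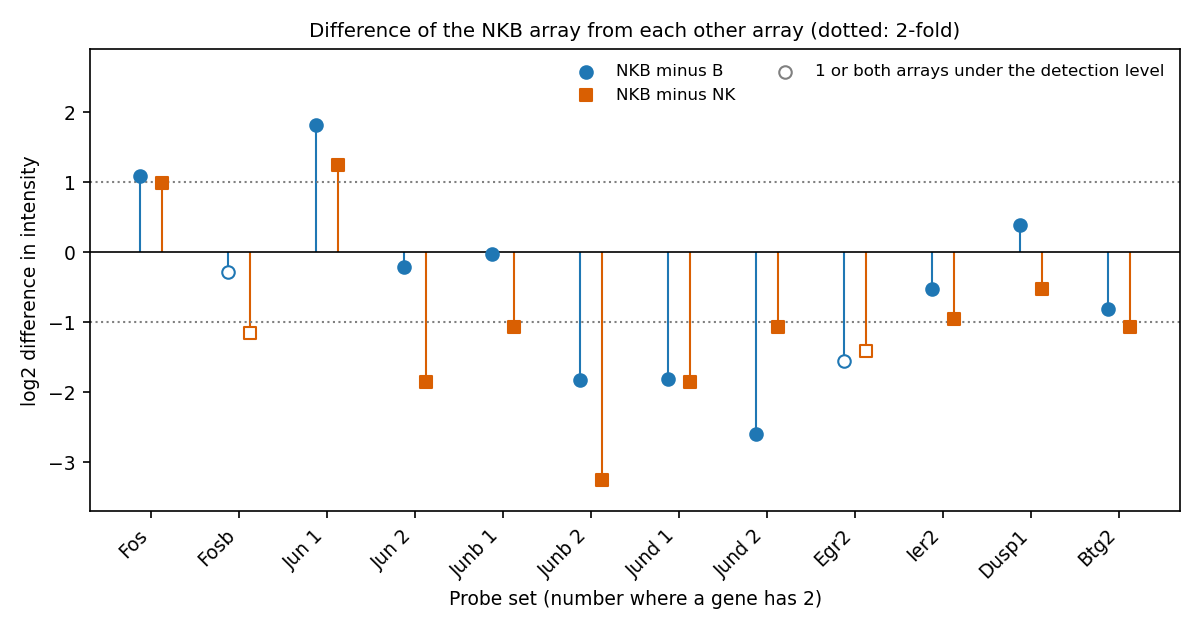
Log2 difference in intensity of the NKB array from the B array (circles) and from the NK array (squares) for the 12 probe sets, without the detection level; open symbols have 1 or both arrays under it and dotted lines mark 2-fold. The first and second Jun probe sets point in opposite directions, whereas both Jund probe sets lie below -1 in both comparisons.

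By probe set rather than by gene, 11 were above the level on at least 1 array. Of these 11, NKB was the lowest of the 3 arrays for 8 and the highest for 2, and NK was the highest for 8. Among 17000 transcripts above the level on at least 1 array, NKB was lowest for 39.0% and highest for 41.2%, and NK was highest for 29.2%. NK was lowest for 0 of the 11, and for 36.5% of the transcripts. The probe sets of 1 gene share its transcripts, so they are not separate observations of the populations.

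The authors' deposited tables, which list single transcripts past 2-fold without a detection level or a test, rest on the same intensities. For NKB against B the authors' deposited table lists 2 member probe sets as higher, Fos and the first Jun probe set, and 4 as lower, the second of Junb, both of Jund and Egr2, with 6.96% and 9.38% of all 44170 transcripts listed as higher and lower. For NKB against NK the authors' deposited table lists 1 as higher, again the first of Jun, and 8 as lower, with 8.56% and 9.27% of all transcripts. The 8 belong to 6 genes: Fosb, the second of Jun, both of Junb, both of Jund, Egr2 and Btg2. Jun is thus listed in both directions, and Egr2 is under the level on every array. The folds of the 2 Jund probe sets against B in the authors' deposited table are 3.51 and 6.03.

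How far 2 probe sets of a gene usually part gives a scale for these differences. Among 1013 genes with exactly 2 probe sets above the level on both arrays, the log2 differences of NKB from B were a median of 0.81 apart and in 10% of genes over 2.14 apart, and they had the same sign in 62.0%. The gap was 2.03 for Jun, 1.81 for Junb and 0.78 for Jund. Against NK the median gap was 0.85 over 939 genes, and the gaps were 3.10 for Jun, 2.19 for Junb and 0.78 for Jund. The receptor genes, which are dim, gave another scale: the central 95% of their log2 differences ran from -1.84 to 1.68 for NKB against B and from -1.83 to 1.77 for NKB against NK. Of the members' mean differences, Jund against B (-2.20) and Junb against NK (-2.16) lay outside those ranges and Fos (1.08 and 0.99) inside. By probe set, the first of Jund (-1.81) and the first of Junb (-1.07) lay inside. Only the second of each, at -2.59 and -3.26, lay outside in that comparison. Jund and Junb are the members with the largest differences, and the ranges are a scale from dim genes, not a test.

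**Figure D3:**
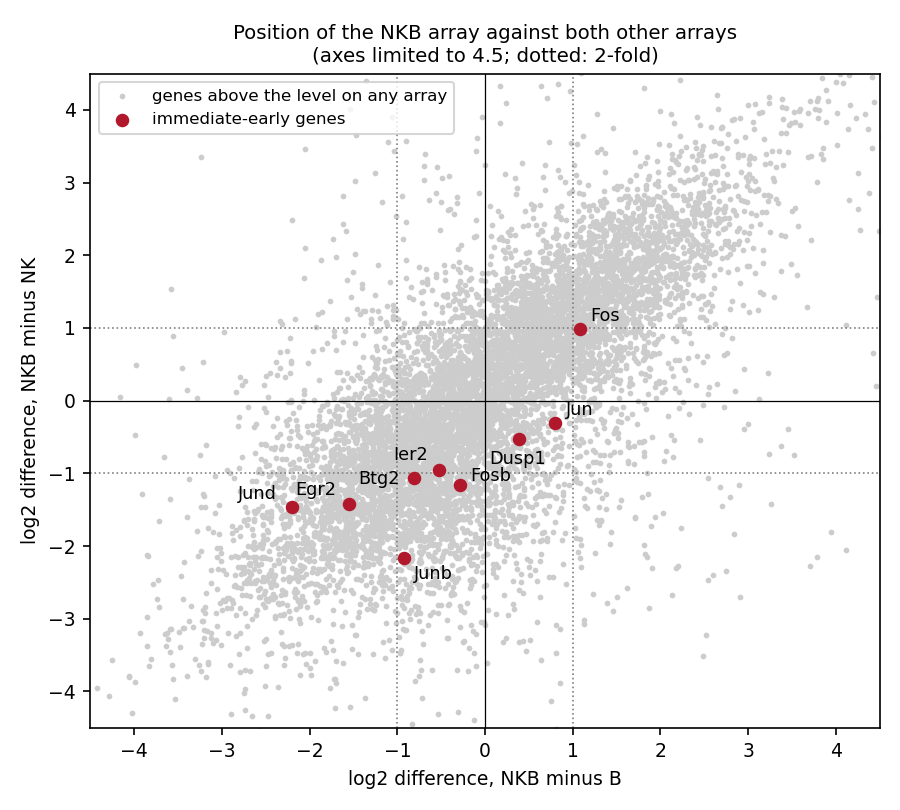
Log2 difference of NKB from B (horizontal) and from NK (vertical) for the 9 members (red, labelled) and for every gene above the level on any array (grey), without the detection level and with both axes limited to 4.5. Fos is the only member above 0 on both axes, and 6 members lie below 0 on both.

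Genes whose pattern over the 3 arrays was most like that of Fos were found by the distance between their pair of log2 differences, NKB minus B and NKB minus NK, among 2504 other genes above the level on all 3 arrays. The 5 nearest were Borcs5, Vdac2, Sdha, Nudt4 and Trappc3, all within a distance of 0.060. Sdha, a subunit of respiratory complex II, read 2693 on B, 2768 on NK and 5514 on NKB, and Vdac2, a channel of the outer mitochondrial membrane, read 683, 719 and 1447. The 5 nearest to the median pair of the 8 members above the level on any array were Ap5z1, Cbl, Calm2, G0s2 and Tob1, within 0.087. Tob1, a relative of Btg2, read 319.8 on B, 530.3 on NK and 266 on NKB. With 3 arrays the likeness rests on 2 differences per gene.

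Other genes of the early response were taken from lists of known members. The background for their counts over all genes is 4.56% higher and 4.75% lower for NKB against B, and 5.97% and 5.10% for NKB against NK. Among genes above the level on at least 1 of the 2 arrays it is 14.4% and 15.0%, and 17.5% and 15.0%. Many genes of these lists are above the level, and nothing particular to a list is read from the counts. Of 13 further immediate-early transcription factors on the arrays, 3 had a value at least 2-fold higher in NKB cells than in B cells, 4 one at least 2-fold lower and 6 neither. The higher ones were Klf6 (3.50-fold) and Klf4 (2.72-fold), zinc-finger factors induced by stress, and Nr4a2 (3.24-fold), an orphan nuclear receptor. The lower ones were Ier5 (3.77-fold), Egr3 (3.07-fold), Myc (2.71-fold), the driver of cell growth, and Csrnp1 (2.42-fold). Klf6 read 419.9 on B, 808 on NK and 1469 on NKB.

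Against NK, 1 of these 13 was higher in NKB, Egr3 at least 3.31-fold, and 2 were lower. Nr4a1, the nuclear receptor gene used to report antigen receptor signalling, read 1213 on B, 4971 on NK and 843 on NKB and was thus 5.89-fold lower in NKB than in NK. Nfil3, a factor that NK cells need to develop, was at least 4.49-fold lower. Among 9 partners and relatives of AP-1, Mafk was 3.04-fold higher and Atf4, the factor of the integrated stress response, 2.06-fold lower in NKB than in B, and 0 were 2-fold apart between NKB and NK. Atf3 read 106 on B, 191 on NK and 89.9 on NKB, above its level on NK alone, and Fosl1, Batf3, Maff and Jdp2 were under the level on every array.

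Feedback and messenger RNA decay genes, 18 on the arrays, went in both directions: set against B, 3 were higher and 3 lower in NKB, and set against NK, 4 were higher and 5 lower. Gadd45a, a growth arrest gene induced by DNA damage and stress, stood out at 576 on B, 363 on NK and 5992 on NKB, 10.4-fold above B and 16.5-fold above NK on a single probe set. Ppp1r15a, which ends the integrated stress response, was 2.87-fold and Btg1, a relative of Btg2, 2.76-fold higher than in B. Nfkbia, the inhibitor of NF-kappaB that NF-kappaB itself induces, read 1084 on B, 1059 on NK and 270.5 on NKB and was 4.01-fold lower than in B and 3.91-fold lower than in NK. Zfp36, which marks early transcripts for decay, read 5283, 3377 and 1850 in the same order, and was 2.85-fold lower than in B. Dusp2, a nuclear phosphatase of MAP kinases, was 2.91-fold lower than in B and 4.47-fold lower than in NK, Dusp5 8.25-fold and Tnfaip3 at least 5.55-fold lower than in NK, and Dusp6 2.82-fold higher than in NK.

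Of 7 activation surface and cytokine genes, NKB had 2 higher and 0 lower when set against B, and 2 higher and 2 lower when set against NK. Cd69, the early activation antigen, was under the level on B (117) and NK (129) and read 558 on NKB, at least 3.75-fold and 4.07-fold higher. Cd83 was at least 3.65-fold higher than in NK. The chemokine genes Ccl3 and Ccl4 were 4.14-fold and at least 14.3-fold lower than in NK, while Ccl3 was at least 16.1-fold higher than in B.

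The heat shock genes, the other usual reading of handling, were mixed. Of 10 on the arrays, NKB had 3 higher and 1 lower when set against B, and 2 higher and 1 lower when set against NK. Hspa1a, the stress-inducible HSP70 gene, was under the level on all 3 arrays, at 22.9, 42.8 and 51.8. Its copy Hspa1b, whose sequence is nearly identical, read 199, 137 and 114 on B, NK and NKB, above its level on B alone. Hsp90aa1, the inducible HSP90 gene, read 263, 240.4 and 814 and Hspe1, a mitochondrial chaperonin, 309, 185 and 677. Hmox1, the heme oxygenase gene that red pulp macrophages express strongly, read 51.9, 1003 and 595, and Hspa8, the constitutive HSP70 gene, was 2.58-fold lower in NKB than in B and 3.08-fold lower than in NK.

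The kinases and factors upstream of the early response were also read. Of 19 on the arrays, NKB had 0 higher and 1 lower when set against B, and 0 higher and 2 lower when set against NK. The one gene lower in both was Mapkapk2, a kinase under p38 that stabilises early transcripts, at 630.4 on B, 979 on NK and 183 on NKB. Mapk14, the p38 gene itself, was 2.38-fold lower than in NK. Srf read 125, 169 and 92.4 on B, NK and NKB, above its level on NK alone, and Creb1 was under it on all 3.

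**Figure D4:**
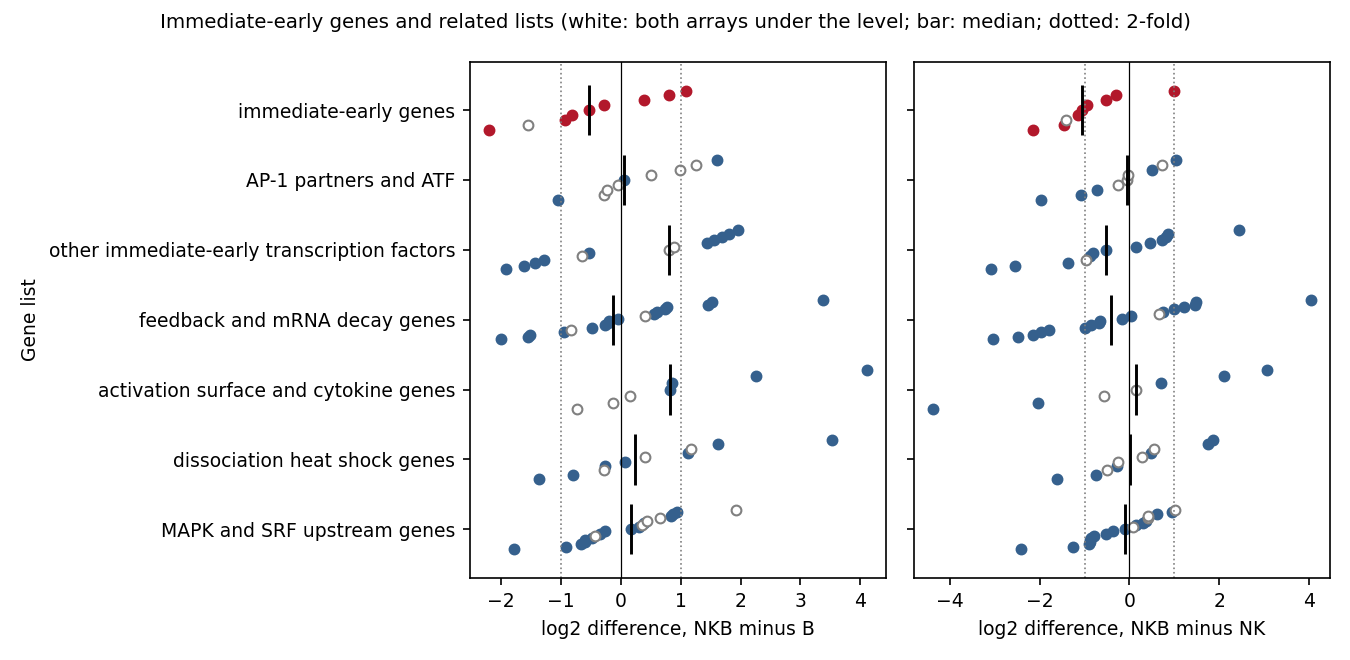
Log2 difference of NKB from B (left) and from NK (right) for each gene of the immediate-early genes (red) and of 6 related lists (blue), without the detection level; white points have both arrays under it, black bars are medians over all genes of a list on the array and dotted lines mark 2-fold. The immediate-early genes have a median of -0.53 against B and -1.06 against NK. They and the related lists all have genes on both sides of 0. Medians of the related lists against NK run from -0.53 (other immediate-early transcription factors) to 0.16 (activation surface and cytokine genes), with -0.40 for feedback and mRNA decay genes.

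Markers of other cell types on the same arrays were as follows. Of 8 erythroid markers, 3 had an NKB value at least 2-fold above that of B, and 4 were above the level on B, 5 on NK and 4 on NKB. Their summed intensities were 1760 on B, 9084 on NK and 11418 on NKB. Against NK, 1 was higher in NKB (Hbb-b1, 2083 on NK and 5583 on NKB), 0 lower and 7 neither, with a median log2 difference of -0.33 without the level. T cell markers were 2-fold apart between NKB and B for 0 of 7 and lower than in NK for 1, with sums of 530 on B, 1134 on NK and 646 on NKB. Neutrophil markers were 2-fold apart for 0 of 8 in both, with sums of 436, 600.1 and 485. Their part in the values of the early response genes was not tested.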

How the data were processed

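Each sample is the total RNA of 1 sorted population on 1 NimbleGen single-colour array (Cy3). The authors deposited 1 intensity per transcript. The submitters' processing notes name RMA, without a version. Per the file headers, 44155 of 44170 transcripts, the 12 members' probe sets included, are summarised from 3 probes, with coordinates on MM9. The values are on a linear scale, and a table of the whole series holds the same intensities (largest difference 0). The authors' deposited tables of log2 fold changes are plain ratios of 2 arrays. No further normalization was applied.

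Symbols were updated by gene identifier (39057 transcripts matched, 5650 renamed, 2284 without a symbol left out) with a RefSeq table (GRCm38.p6), used for names only. Promoter sequences come from RefSeq on that build. Levels, means, calls and motif matches were computed in Python 3.11.15 with pandas 2.3.3 and NumPy 2.4.6. The code for the calls was also run on simulated arrays. Differences were planted there in bright genes only, with less noise than the receptor genes show here. That run checks the code and cannot give the error of the calls on these arrays. The genes named are all members, the 2 largest and 2 smallest differences of each related list, a few well-known early genes fixed by name, and the nearest patterns; others were named after their values were seen. The members, the 12 other lists and the rules were chosen with earlier results of these data known. Alternatives were the detection level, scaling, probe set summary and threshold.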

Additional observations from a re-analysis of the deposited data

How the results depend on the processing

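With 1 array per population, a result here is a count or a difference with no test, and no paired analysis was possible because there are no replicates. Of 162 differences of single members under 6 alternatives, 149 stayed on their side of 2-fold, 9 moved past it in the same direction and 3 no longer passed it. Jun in NKB against NK changed sign and passed 2-fold with the brightest probe set, from -0.31 to 1.24. Changes of sign inside 2-fold are counted among the 149, such as Jund in NK against B with the brightest probe set, from -0.74 to 0.041.
Members past 2-fold between NKB and B numbered 2, and 3 with no detection level (Egr2 added as lower), 2 with a new quantile normalization (0 higher and 2 lower, with Fos at 0.85 and Junb at -1.23), 3 with the brightest probe set (2 higher) and 1 at 3-fold. Between NKB and NK they numbered 4, and 3 with the level at the 99th percentile, where Fosb was under it on both arrays. They numbered 5 with no level (Egr2 added), 5 with a new quantile normalization and 5 once the array medians were made equal (Ier2 added at -1.10 and -1.06). With the brightest probe set there were 5 (1 higher), and at 3-fold 1. Between NK and B they numbered 2, 3 with a new quantile normalization (Dusp1 added), 4 with equal medians (Fosb and Dusp1 added), 1 with the brightest probe set and 0 at 3-fold.
Over all genes, the 2250 past 2-fold between NKB and B became 1162 with the level at the 99th percentile, 6318 with no level, 3498 with the brightest probe set and 959 at 3-fold. The 2675 between NKB and NK became 1281, 7269, 4024 and 1267 in that order. The 1254 between NK and B became 443, 3949, 1851 and 456, and 1191 (726 higher and 465 lower) with equal medians. With the split of all genes at 1102 higher and 1148 lower for NKB against B, 1442 and 1233 for NKB against NK and 537 and 717 for NK against B, a new quantile normalization gave 971 and 1244, 1229 and 1454, and 659 and 603, and equal medians gave 1223 and 1015, and 1293 and 1411. Signal near the detection level limits Egr2 and Fosb.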
